A study of Mus musculus with 12 samples.

Results

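Axon guidance ligands and receptors were compared between J1 mouse embryonic stem (ES) cells and embryoid bodies made from them. The set held the genes of the semaphorin, plexin, neuropilin, ephrin, Eph receptor, Slit, Robo, netrin, UNC5 and FLRT families, chosen by gene symbol from probe sets that the array annotation assigns to 1 gene. It came to 72 genes of 18193 and to 157 probe sets of 45137. Of these genes, Plxna4os1 is an antisense RNA and Unc5cl a UNC5-like gene, and 70 remained without them. Ephb2, an Eph receptor gene, had no probe set that met the rule. By family there were 20 semaphorin genes, 10 plexins with the antisense RNA, 2 neuropilins, 8 ephrins, 13 Eph receptors, 3 Slits, 4 Robos, 4 netrins, 5 UNC5 genes with Unc5cl and 3 FLRT genes. The arrays were the Affymetrix MOE430A and MOE430B types, here chip A and chip B. Chip A carried 56 of the genes and chip B 43, with 27 genes on both.

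The ES cells had been grown for 2 days on 0.1% gelatin, in medium that held 10% fetal bovine serum, LIF, β-mercaptoethanol and sodium pyruvate. LIF is a cytokine that keeps mouse ES cells undifferentiated. The embryoid bodies, aggregates in which ES cells start to differentiate, had 5 days of culture in bacterial Petri dishes, in 10% serum but with none of these 3 additions. Each state had 3 samples, and each sample had 1 array of either type. By the labels the ES samples were 95% pure as estimated by eye, and DR4 feeder cells were the contaminant. For embryoid bodies no such figure is given. The labels do not say that replicates were separate cultures, so p-values reflect the spread among these samples only, and that spread may be technical. The array medians ran from 586.8 to 679.1 on chip A and from 907.1 to 995.6 on chip B, and the number of arrays limits the precision. Pou5f1, the core pluripotency factor, fell 1.87-fold in embryoid bodies (limma adjusted p = 0.00781) and Zfp42 fell 3.36-fold (adjusted p = 0.0298, and up to 0.114 without any 1 array other than ES replicate 3). Nanog and Sox2, which act with Pou5f1, had log2 changes of -0.16 and -0.07 and did not pass. Of 10 pluripotency markers 0 rose and 8 fell, beside 3.46% and 3.45% of all genes on chip A. Among these falls, the call of Esrrb was lost without any 1 array but ES replicate 3 (adjusted p up to 0.14). That of Dppa3 was lost without EB replicate 1 or 3 (up to 0.0603).

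These families steer migrating cells and growing axons by attraction or repulsion at the cell surface. Semaphorins act through plexins, the secreted class together with neuropilins. Ephrins are tethered to the membrane and bind Eph receptor tyrosine kinases on neighbouring cells, with signalling into both cells. Secreted Slits bind Robo receptors and secreted netrins bind UNC5 receptors and DCC, while FLRT proteins are membrane ligands of UNC5 and of latrophilins. In the embryo the same molecules act well before axons form, in boundary formation, cell sorting and vessel growth.

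The calls of 4 genes, namely Epha2, Epha7, Flrt3 and Robo3, held on leaving out any 1 array, and their promoters are shown for that reason. Each stretch runs from 250 bases before to 50 bases after a RefSeq start on GRCm38.p6, 5′ to 3′ on the gene's strand. Capitals mark GC boxes (GGGCGG) and CCAAT boxes (CCAAT), searched on both strands, so that CCGCCC and ATTGG are the same motifs read on the other strand. All 4 genes matched the RefSeq table, Epha7 with 2 overlapping entries of which the first is given. Epha2 lies at chr4:141300971-141301270 on the + strand, Epha7 at chr4:28812881-28813180 on the + strand, Flrt3 at chr2:140671427-140671726 on the - strand and Robo3 at chr9:37433126-37433425 on the - strand.
Epha2: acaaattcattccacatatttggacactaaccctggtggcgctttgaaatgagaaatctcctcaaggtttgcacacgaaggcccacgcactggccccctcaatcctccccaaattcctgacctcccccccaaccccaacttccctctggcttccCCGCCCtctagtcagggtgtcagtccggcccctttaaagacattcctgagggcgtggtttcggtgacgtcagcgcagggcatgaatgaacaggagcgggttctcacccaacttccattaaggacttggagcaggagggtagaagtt
Epha7: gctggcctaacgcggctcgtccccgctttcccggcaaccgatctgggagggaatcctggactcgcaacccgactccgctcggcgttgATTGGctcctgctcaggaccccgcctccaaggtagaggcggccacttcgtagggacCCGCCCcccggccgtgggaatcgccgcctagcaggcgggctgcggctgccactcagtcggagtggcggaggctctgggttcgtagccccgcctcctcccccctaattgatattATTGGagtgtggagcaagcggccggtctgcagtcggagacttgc
Flrt3: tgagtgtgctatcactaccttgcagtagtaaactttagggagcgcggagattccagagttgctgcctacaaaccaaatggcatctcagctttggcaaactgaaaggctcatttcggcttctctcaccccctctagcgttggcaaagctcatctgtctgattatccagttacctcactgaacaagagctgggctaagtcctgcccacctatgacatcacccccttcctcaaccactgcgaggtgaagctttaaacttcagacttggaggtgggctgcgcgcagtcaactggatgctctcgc
Robo3: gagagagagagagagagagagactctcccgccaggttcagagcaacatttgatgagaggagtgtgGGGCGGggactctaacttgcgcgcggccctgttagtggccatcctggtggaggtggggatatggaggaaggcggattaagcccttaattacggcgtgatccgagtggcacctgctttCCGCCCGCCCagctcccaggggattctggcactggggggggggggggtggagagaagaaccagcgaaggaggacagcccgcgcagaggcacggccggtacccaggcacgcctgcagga
The Epha2 stretch held 1 GC box, that of Epha7 1 GC box and 2 CCAAT boxes, and that of Robo3 3 GC boxes, of which 2 overlap. The Flrt3 stretch held neither motif, and none of the 4 held TATAAA. Among all 32851 promoters of the table, 35.7% held a GC box, 37.4% a CCAAT box and 13.6% TATAAA. CpG pairs numbered 10 in Epha2, 28 in Epha7, 8 in Flrt3 and 17 in Robo3, beside a median of 7 and quartiles of 3 and 20 over all promoters. Such matches describe the letters and are not shown to be sites.

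Across both chips 14 genes of the set had a probe set that passed the test, 9 of them higher in embryoid bodies and 5 lower. A gene counts here if any of its probe sets on either chip passed, and 47 of the 72 genes had more than 1 probe set. The share of all genes by this rule was not computed, so the count has no background of its own. The shares given below are per chip, by probe set and with 1 probe set per gene. The 9 that rose were Flrt3, Epha7, Slit1, Slit2, Robo3, Plxna2, Efna5, Sema3a and Sema3f. The 5 that fell were Epha2, Sema4a, Sema4b, Sema4d and Plxna1. No gene had calls in both directions, and 58 genes had none. Each chip was fitted on its own with limma on log2(signal + pseudocount), with a threshold of 0.05 on the p adjusted over all its probe sets. The pseudocount was 136.46 on chip A and 252.65 on chip B, so fold changes understate the changes of dim genes. As the RNA is bulk, fewer cells of a type and less RNA per cell cannot be told apart.

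On chip A, 5 of 95 member probe sets (5.26%) rose and 4 (4.21%) fell, where 3.39% of all probe sets rose and 2.91% fell. With 1 probe set per gene, 4 of 56 genes (7.14%) rose and 3 (5.36%) fell, beside 3.46% and 3.45% of all genes. The median log2 change of the member probe sets was 0.007, and that of all probe sets -0.05. The groups did not overlap for 31 members (32.6%), beside 27.2% of all probe sets. The shares of members called on chip A were above the background in both directions, more so by gene. They rest on few calls, and the gaps were not tested. On chip B 8 of 62 member probe sets (12.9%) rose and 1 (1.61%) fell, where 5.77% of all rose and 4.91% fell. By gene, 6 of 43 (13.95%) rose and 1 (2.33%) fell, beside 6.35% and 6.55% of all genes. The medians were 0.066 for members and -0.001 for all, and the groups did not overlap for 21 members (33.9%), close to the 33.5% of all probe sets. The share that rose was above the background of chip B and the share that fell below it, and neither gap was tested. No scan day held arrays of both states on either chip. On chip B all arrays of a state shared 1 day, and on chip A each embryoid body array had a day of its own and the ES arrays shared another, so scan day and culture state cannot be told apart. Some arrays of both states shared a fluidics position. On chip A, EB replicate 1 and ES replicate 3 each had a position of their own. A fit with that position as a block therefore rests on ES replicate 1 with EB replicate 2 and ES replicate 2 with EB replicate 3. With that block, the calls of Sema3a, Sema3f, Sema4a and 1 Sema4d probe set were lost, while a second Sema4d probe set and 1 of Efnb2 passed. Over all probe sets of chip A it called 560 higher and 458 lower, beside 767 and 658 without it. Whether the lost calls reflect the position or the fewer arrays compared cannot be told apart.

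**Figure D1:**
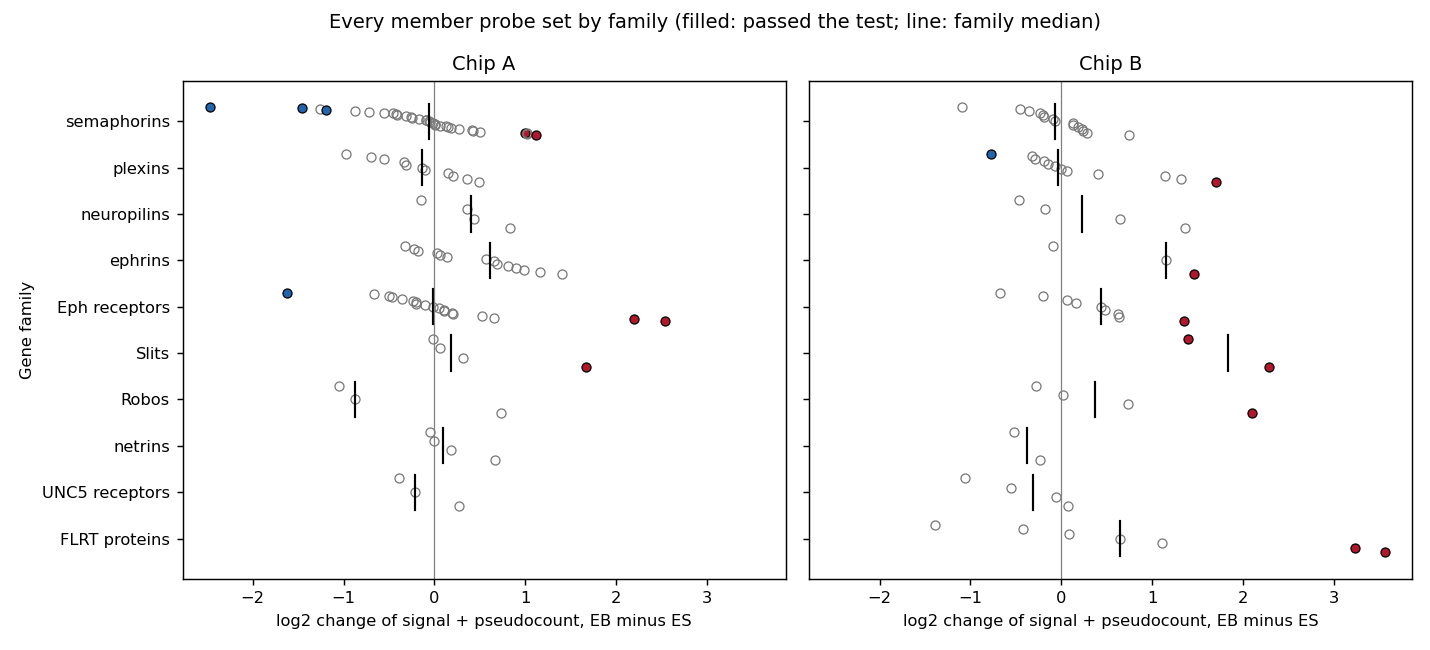
Log2 change (embryoid bodies minus ES cells, from limma on log2(signal + pseudocount)) of every member probe set on the x axis, by family on the y axis, for each chip. Each point is 1 probe set, filled points passed the test (red higher, blue lower) and short lines are family medians; the vertical offset within a family has no meaning. Most families spread on both sides of 0; the point farthest right is Flrt3 on chip B at 3.56 and the one farthest left is Sema4b on chip A at -2.47.

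Of the membrane ligands, Flrt3 had the largest rise of the set on either chip. FLRT3 binds UNC5 receptors and latrophilins, and it takes part in adhesion and tissue integrity in the early mouse embryo. On one of its probe sets the chip B signal was 292, 258 and 178 in ES replicates 1 to 3 and 5149, 4218 and 7917 in the embryoid bodies. On the other it was 415, 180.1 and 279 against 3609.7, 4977 and 6033. Every embryoid body array stood far above every ES array on both. The means went from 243 ± 58.6 to 5761 ± 1924 and from 292 ± 118 to 4873 ± 1215 (SD, n = 3 each). The log2 changes were 3.56 ± 0.32 and 3.23 ± 0.33 (SE), or 11.8-fold and 9.38-fold, with limma adjusted p values of 0.00104 and 0.00122. Leaving out any 1 array kept both calls, with adjusted p values up to 0.0105. The related Flrt1 and Flrt2, whose products bind the same partners, had 5 probe sets and no call. The brighter Flrt1 probe set had a log2 change of -0.42 (adjusted p = 0.437) and the dimmer one 1.11 (adjusted p = 0.0922). For Flrt2 one probe set read 2059, 1749 and 3330.1 in ES cells against 246, 906 and 1328 in embryoid bodies, a log2 change of -1.39 (adjusted p = 0.0738, and 0.0478 after a filter on dim probe sets). Its other probe sets had changes of 0.08 and 0.64. Flrt3 was thus the only FLRT gene to pass, and whether its relatives differ from it was not tested.

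Slit1 and Slit2, which encode secreted ligands of Robo receptors, both rose. The Slit1 signal on chip B was 260.0, 162 and 563 in ES cells and 4305, 981 and 3327 in embryoid bodies. The groups did not overlap, but EB replicate 2 was far lower than the other embryoid bodies. This gave a log2 change of 2.29 ± 0.52 (SE), or 4.88-fold (adjusted p = 0.0222), and the call ended without EB replicate 1 or 3, and likewise without ES replicate 1 or 2, at adjusted p values up to 0.0934. A dim Slit1 probe set on chip A gave 0.06 (adjusted p = 0.927). Slit2 passed on both chips. On chip A it read 423, 93.6 and 567 in ES cells and 1160.2, 1164 and 1596 in embryoid bodies, a log2 change of 1.67 ± 0.40 (adjusted p = 0.0409). On chip B its signals were 171, 168 and 141 against 871, 518 and 1209.5, a change of 1.39 ± 0.36 (adjusted p = 0.0354). No embryoid body array came down to the ES range on either chip. The adjusted p of the chip A call passed 0.05 without ES replicate 1 or any 1 embryoid body array (up to 0.133), and also with no intensity trend (0.0654), a pseudocount of 1 (0.0534) or quantile scaling (0.0506). That of the chip B call did so when any array other than EB replicate 2 was dropped (up to 0.0972). Another Slit2 probe set on chip A was dim and gave -0.02. Slit3, on chip A only, had a log2 change of 0.32 (adjusted p = 0.733), with ES signals from 95.8 to 655 that took in all 3 embryoid bodies.

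Among the Robo genes Robo3 rose on chip B, and Robo1, Robo2 and Robo4 had no call. ROBO3 is known from commissural axons of the hindbrain and spinal cord, where it lets them cross the midline. Its chip B signal was 114, 263 and 162 in ES cells and 1455, 1171 and 2241 in embryoid bodies, with a wide gap between the groups. That was a log2 change of 2.09 ± 0.39 (SE), or 4.26-fold (limma adjusted p = 0.0105, up to 0.0418 without any 1 array). A Robo3 probe set on chip A pointed the other way. It read 384, 678 and 265 in ES cells against 201, 209 and 26.6 in embryoid bodies, again without overlap, for a log2 change of -1.05 ± 0.39 that did not pass (adjusted p = 0.147). The direction given for Robo3 therefore rests on 1 of its 2 probe sets. Robo1, a widely expressed Slit receptor, had changes of 0.74 (adjusted p = 0.167), -0.28 and 0.01 on its 3 probe sets. Robo2 went from 212 ± 66.2 to 568 ± 333 (SD, n = 3; log2 change 0.73, adjusted p = 0.239), and the endothelial receptor gene Robo4 had a log2 change of -0.87 (adjusted p = 0.182).

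Netrins and UNC5 receptors gave no call. All 6 netrin probe sets, for Ntn1, Ntn3, Ntn4 and Ntn5, had log2 changes between -0.52 and 0.67. Ntn1, the best known attractant of commissural axons, read 752, 1194 and 399 in ES cells and 1039, 1328 and 1332 in embryoid bodies on its brighter probe set. One ES array lay inside the embryoid body range, and the log2 change was 0.67 with a 95% interval from -0.06 to 1.39 (adjusted p = 0.269). Ntn4 on chip A was below the pseudocount in both groups. Unc5b, a netrin receptor of vessels and axons, stood on chip A at 2802 ± 516 for ES and 2085 ± 132 for embryoid bodies (SD, n = 3; log2 change -0.39, adjusted p = 0.23). On chip B it gave -0.06. Unc5a, a receptor of neurons, stood at 1218, 4133 and 3010.0 against 1319, 1402 and 641, so its groups overlapped (log2 change -1.06, adjusted p = 0.137). Unc5c, Unc5d and Unc5cl ran from -0.56 to 0.27.

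**Figure D2:**
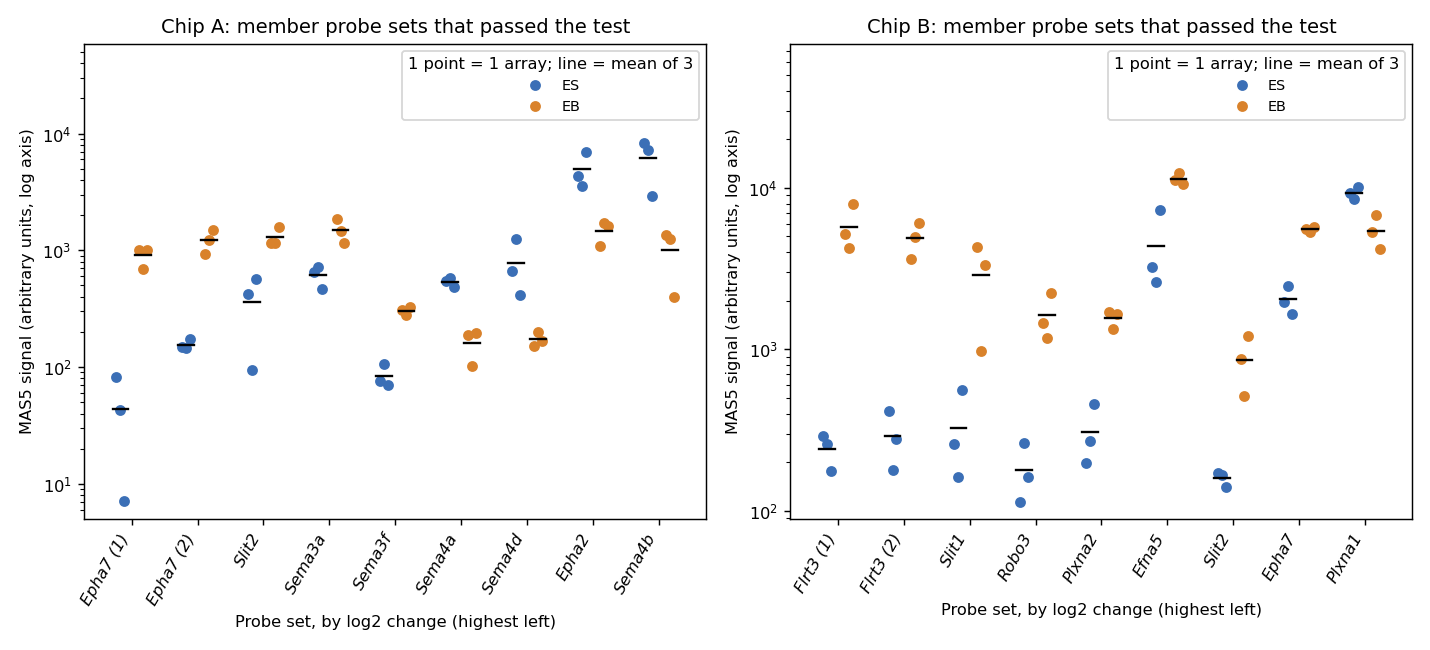
MAS5 signal (arbitrary units, log axis) in each of the 6 arrays of a chip for the 18 member probe sets that passed the test, ordered by log2 change. Each point is 1 array, blue for ES cells and orange for embryoid bodies, and short lines are means of 3; (1) and (2) mark different probe sets of a gene, the first with the larger change. The colours do not overlap for any probe set shown, and the widest gap is that of Flrt3, at 178 to 415 in ES cells against 3609.7 to 7917 in embryoid bodies.

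Of the 8 ephrins only Efna5 passed. Ephrin-A5 is anchored to the membrane by a lipid and is a repellent in the formation of topographic maps. Its chip B signal was 3242, 2618 and 7253 in ES cells and 11194, 12292 and 10600.3 in embryoid bodies. The embryoid bodies were close together, while ES replicate 3 was well above the other ES arrays. The log2 change was 1.46 ± 0.31 (SE), or 2.75-fold (limma adjusted p = 0.0189). Without ES replicate 3 the adjusted p was 0.00512, and without any other 1 array the call was lost (up to 0.0741). The Efna5 probe set on chip A, with signals from 79.0 to 328, gave 0.06 (adjusted p = 0.935).

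Efnb2, the transmembrane ligand of EphB4 in arteries, came close to the threshold on chip A. On its probe set with the largest change it read 637, 293 and 853 in ES cells against 2074, 1039 and 2189 in embryoid bodies (log2 change 1.40 ± 0.36, adjusted p = 0.0531). On the next it read 521, 477 and 1109 against 1968, 1331 and 1690.2 (1.16 ± 0.30, adjusted p = 0.0512). Neither pair of groups overlapped, and neither passed. ES replicate 3 was the highest ES array on both, and without it the adjusted p values were 0.0306 and 0.00913. After a filter on dim probe sets they were 0.0229 and 0.0224, and with a pseudocount of 1 they were 0.0488 and 0.0453. With the scan day as a random block they were 0.0298 and 0.0278, but that block has a consensus correlation of -0.113 and cannot separate the day from the culture state. The other 2 Efnb2 probe sets had changes of 0.99 and 0.57, the first with an adjusted p of 0.0353 without ES replicate 3. Efnb1 had changes of 0.66 to 0.89 on 3 probe sets (lowest adjusted p = 0.0565) and Efnb3 one of 0.81 (adjusted p = 0.106), so the 8 ephrin-B probe sets were all above 0 without a call. The Efnb1 probe set nearest the threshold passed after median scaling (0.0392), after the dim filter (0.0261) and with the scan day as a random block (0.0316). Of the ephrin-A genes on chip A, Efna1, Efna2, Efna3 and Efna4 ran from -0.32 to 0.14 and Efna5 gave 0.06. Whether the ephrin-A and ephrin-B genes differ was not tested. Efna4 was the brightest of the uncalled ephrins there, at 1451 ± 342 and 1590.4 ± 31.5. Efna2 on chip B read 2058, 869.9 and 4286 in ES cells against 4984, 4276 and 5165 in embryoid bodies (log2 change 1.15, adjusted p = 0.104, and 0.0273 without ES replicate 3), while on chip A it gave -0.23.

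Of the Eph receptors 1 rose and 1 fell. Epha7, a receptor of the neural plate and forebrain that binds ephrin-A ligands, rose on 3 of its 4 probe sets. On chip A one read 81.9, 43.2 and 7.17 in ES cells and 1001, 694 and 1016 in embryoid bodies, and another 148, 144 and 173 against 933, 1231 and 1491. On chip B the signal went from 1978, 2477 and 1667 to 5603, 5315 and 5732. The groups were well apart on all 3, and the ES arrays were near or below the pseudocount on chip A. The log2 changes were 2.53 ± 0.30, 2.20 ± 0.28 and 1.35 ± 0.22 (SE), or 5.78-fold, 4.58-fold and 2.56-fold, with adjusted p values of 0.00246, 0.00347 and 0.00604. These calls held without any 1 array, at adjusted p values up to 0.0287. The fourth Epha7 probe set, at 149, 195 and 131 against 83.6, 206 and 137, did not differ beyond its spread (-0.10, 95% interval from -0.67 to 0.47).

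Epha2, an Eph receptor of epithelial and pluripotent cells, fell. Its signal on chip A was 4317, 3573 and 6955 in ES cells and 1096, 1728 and 1606 in embryoid bodies. Even the lowest ES array was well above the highest embryoid body array. The means were 4948 ± 1777 and 1477 ± 335 (SD, n = 3 each), and the log2 change was -1.62 ± 0.26 (SE), a 3.08-fold fall (limma adjusted p = 0.00809, up to 0.0389 without any 1 array). It had a single probe set. The remaining 11 Eph receptor genes, Epha1, Epha3, Epha4, Epha5, Epha6, Epha8, Epha10, Ephb1, Ephb3, Ephb4 and Ephb6, had no call. Their log2 changes ran from -0.66 to 0.65 on chip A and from -0.67 to 0.64 on chip B. Ephb4, the receptor of ephrin-B2 in veins, was the brightest of them on chip A, at 1498 ± 323 and 1266 ± 168 (log2 change -0.21, adjusted p = 0.625). Ephb1 was the brightest on chip B, at 2215 ± 538 and 2542 ± 792 (0.17, adjusted p = 0.745). Epha5 had the largest uncalled change on chip A, a fall from 277 ± 61.5 to 135 ± 95.4 (adjusted p = 0.273). Its other chip A probe set gave -0.36, while those on chip B gave 0.48 (adjusted p = 0.4) and 0.06, so the direction differed between the chips. Epha4, which binds ephrins of both classes, gave 0.64 (adjusted p = 0.165) and -0.67 (adjusted p = 0.32) on different probe sets of chip B, so its probe sets did not share a direction.

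In the semaphorins 2 genes of the secreted class 3 rose and 3 of the membrane-bound class 4 fell, all on chip A, and none of the 15 probe sets on chip B passed. Sema3a, a repellent that acts through neuropilin 1, read 650.4, 714 and 467 in ES cells against 1844, 1467 and 1156 in embryoid bodies. The groups were apart, and the log2 change was 1.11 ± 0.25 (SE), or 2.17-fold (limma adjusted p = 0.0308). Its call was lost without ES replicate 1 or any 1 embryoid body array (adjusted p up to 0.146) and with the fluidics position as a block (0.2). A second Sema3a probe set gave 1.02 (adjusted p = 0.0907), and a dim one gave 0.06. Sema3f, which signals through neuropilin 2, had low signals of 75.7, 107 and 70.2 against 306, 279.9 and 324. The arrays of a group were close together, and the rise was 2.00-fold, with a 95% interval from 0.47 to 1.52 on the log2 scale (limma adjusted p = 0.038). Of the 13 rises it alone was lost on leaving out any 1 array (up to 0.137), and it was lost with the fluidics position as a block (0.201) and with a pseudocount of 1 (0.0679). Other Sema3f probe sets gave 1.02 (adjusted p = 0.0816) and 0.24.

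Sema4b, a membrane semaphorin, had the largest fall of the set. Its signal was 8234, 7302 and 2902 in ES cells and 1345, 1260.1 and 401 in embryoid bodies. Replicate 3 was the lowest of either group, and the groups did not overlap. The log2 change was -2.47 ± 0.45 (SE), a 5.54-fold fall (limma adjusted p = 0.0141), and the call was lost without ES replicate 1 (0.0643) or ES replicate 2 (0.0585). A dimmer Sema4b probe set gave -0.42 (adjusted p = 0.636). Sema4a, known from immune cells, went from 542, 579 and 489.6 to 188, 102 and 194 (log2 change -1.19 ± 0.28, 2.28-fold lower, adjusted p = 0.0385). Sema4d, a ligand of plexin B1, stood at 661, 1259.6 and 413 against 152, 201 and 167 on the probe set that passed (-1.46 ± 0.37, 2.75-fold lower, adjusted p = 0.0477). A brighter Sema4d probe set read 5554, 5458 and 4625 against 4119, 2700.4 and 2684 (-0.72 ± 0.19) and missed the threshold at 0.0523. It passed with the fluidics position as a block (adjusted p = 0.0221), with the scan day as a random block (0.0304), after the dim filter (0.0347), and without EB replicate 1 (0.0387) or ES replicate 3 (0.0435). On the probe sets that passed and on the brighter Sema4d one, no embryoid body array reached the ES range. The groups did overlap on the dimmer Sema4b probe set and on a further Sema4d one that did not pass (-0.41). The calls of Sema4a and Sema4d were lost on leaving out any 1 array but ES replicate 3 (adjusted p up to 0.133 and 0.151), with the fluidics position as a block (0.128 and 0.0678) and after quantile scaling (0.0502 and 0.0527). The call of the dimmer Sema4d probe set was also lost with no intensity trend (0.0546) and with the chip median as pseudocount (0.0688).

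The other 15 semaphorin genes had no call, and their probe sets ran from -1.26 to 0.50 on chip A. Sema3e, a ligand of plexin D1, held the largest of these differences, at 270.0, 819 and 1235 in ES cells against 401, 45.9 and 256 in embryoid bodies (adjusted p = 0.19). Its arrays overlapped. Sema6c was the brightest of them on chip A, at 2426 ± 751 and 1992 ± 519.5 (SD, n = 3; log2 change -0.26, adjusted p = 0.598). On chip B Sema4c, a ligand of plexin B2, read 1407, 2144 and 2813 against 4809.9, 3342 and 2915 (0.75, adjusted p = 0.127). Sema4f had the largest difference there, from 673 ± 354 to 181 ± 165 (-1.09, adjusted p = 0.102), on a probe set whose ID ends in _x_at. The chip A probe set of Sema4f gave -0.09 (adjusted p = 0.905). Neither Sema4c nor Sema4f had overlapping groups on chip B. All 3 Sema3b probe sets were below the pseudocount in both groups, 3 of 13 such member probe sets on chip A.

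Plexins, the semaphorin receptors, gave 1 rise and 1 fall within the A subfamily, both on chip B. Plxna2 read 199, 272 and 461 in ES cells against 1696, 1330.4 and 1649.5 in embryoid bodies, with no overlap. The log2 change was 1.71 ± 0.37 (SE), or 3.26-fold (limma adjusted p = 0.0193), and the call was lost without ES replicate 1 or EB replicate 1 or 3 (up to 0.0731). The other 3 Plxna2 probe sets did not pass, at 0.15, -0.32 and 0.06, and the brightest of them read 3775, 3521 and 2975 against 2135, 2833 and 3153. The rise of Plxna2 was thus seen on 1 of 4 probe sets. Plxna1, a partner of neuropilin 1 in the semaphorin receptor, read 9353, 8510.5 and 10126 in ES cells against 5310.1, 6816 and 4191 in embryoid bodies. All ES arrays were above all embryoid bodies. The log2 change was -0.77 ± 0.21, a 1.71-fold fall (adjusted p = 0.0413). The call ended when any array other than EB replicate 2 was dropped (up to 0.113), with no intensity trend (0.107) and after quantile scaling (a change of -0.61, 0.107). On chip A a dimmer Plxna1 probe set pointed the same way at 577, 822 and 466 against 157, 292 and 300.0 (-0.97, adjusted p = 0.104).

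Plxnb1, the receptor of Sema4d, was the brightest uncalled plexin on chip B. It read 3636, 2572 and 6740.5 in ES cells and 12796, 6711 and 8842 in embryoid bodies, so that ES replicate 3 just overlapped EB replicate 2. It had a log2 change of 1.14 (adjusted p = 0.0548, but 0.0252 without ES replicate 3, 0.0334 after the dim filter and 0.0351 after quantile scaling), and a second probe set gave -0.20. Plxna3 stood at 1745 ± 290.2 and 1354 ± 251 (SD, n = 3) on its brighter probe set (-0.34, adjusted p = 0.375). Plxnc1, a receptor of Sema7a, had 1 probe set on chip B at 162, 647 and 736 against 1759, 1657 and 1233 (1.32, adjusted p = 0.0735) and 5 others from -0.56 to 0.36. The neuropilins Nrp1 and Nrp2, coreceptors for class 3 semaphorins and VEGF, had 8 probe sets and no call. Nrp1 was above 0 on all 4 of its probe sets, from 0.36 to 0.83 (lowest adjusted p = 0.179). Nrp2 gave 1.36 (adjusted p = 0.079) on a probe set that read 809, 544 and 134 against 1129.7, 1606 and 1887, and -0.15 to -0.47 on its other 3. The brightest of those had means of 3776 ± 1493 in ES cells against 2622 ± 912 in embryoid bodies.

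**Figure D3:**
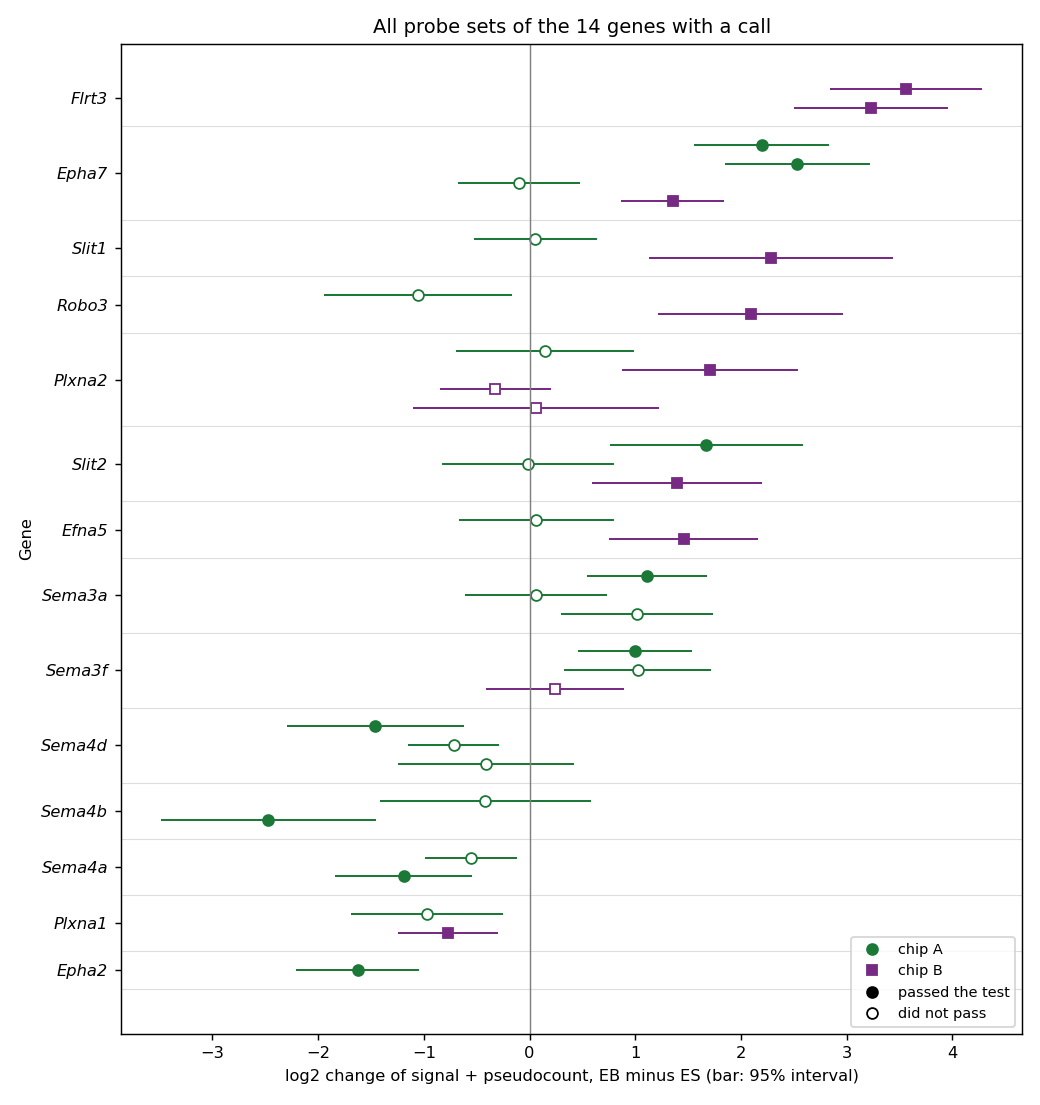
Log2 change (embryoid bodies minus ES cells, x axis) with its 95% limma interval for every probe set of the 14 genes that had a call, grouped by gene on the y axis. Green circles are chip A, purple squares chip B, and filled points passed the test. The 4 probe sets of Epha7 hold 3 rises and 1 value near 0, and the 2 of Robo3 lie at 2.09 and -1.05.

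Probe sets of one gene were often unlike each other. Of the 14 genes with a call, Epha7, Flrt3 and Slit2 had more than 1 probe set that passed, and Epha7 and Slit2 passed on both chips. The log2 changes of all probe sets had 1 sign in 10 of the 14, among them Epha2 with its single probe set, and both signs in Epha7, Plxna2, Robo3 and Slit2. Where in the transcripts the probes lie is not used here, so isoforms and failing probes cannot be told apart. The values also come from an annotation that can be old.

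**Figure D4:**
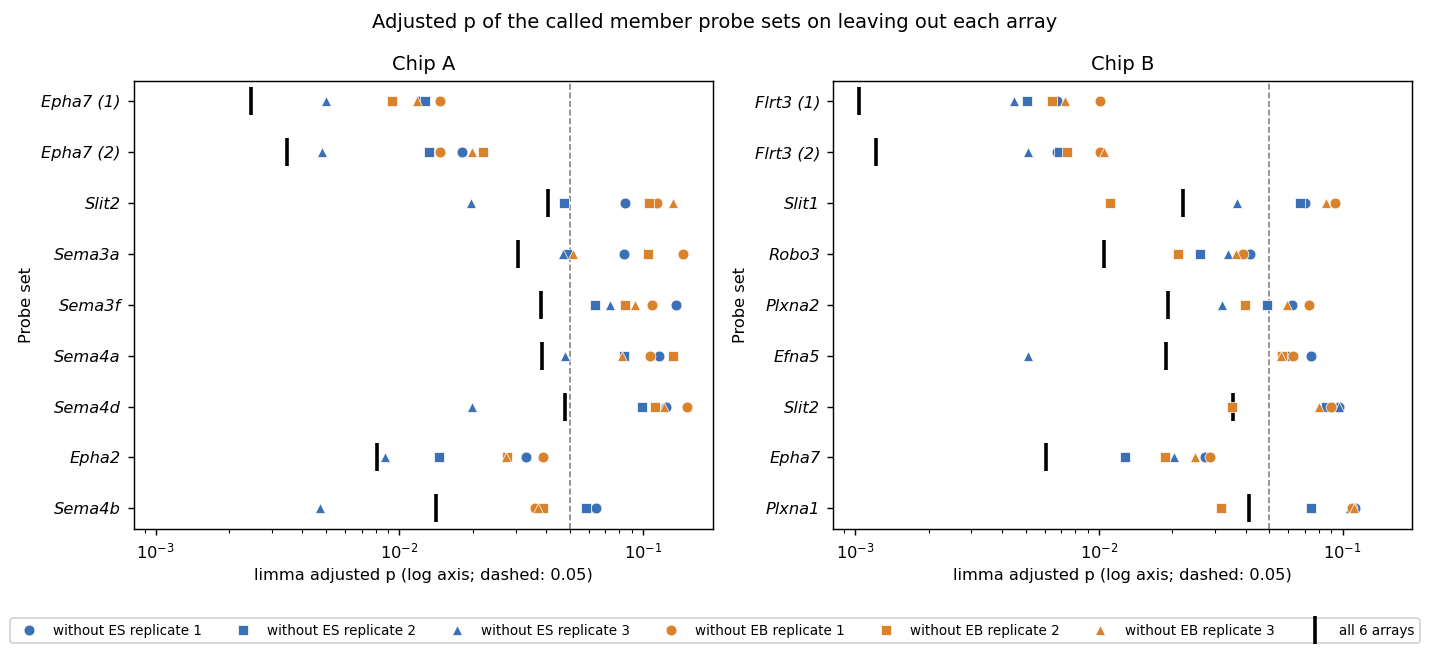
Limma adjusted p (log axis) of the 18 member probe sets that passed, with all 6 arrays of the chip (black bar) and without each array in turn (blue for ES, orange for embryoid bodies). The dashed line is 0.05. For Epha2, both Epha7 probe sets on chip A, the Epha7 probe set on chip B, both of Flrt3 and Robo3 all points lie left of the line, and for the other 11 at least 1 lies right of it.

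Only 7 of the 18 called probe sets kept their call on leaving out any 1 array, and they belong to Epha2, Epha7, Flrt3 and Robo3. Without ES replicate 3, chip A had 7 members higher and 5 lower, beside 5 and 4 with all arrays. Calls over all its probe sets grew too, from 767 to 1161 higher and from 658 to 930 lower. On chip B there were 9 members higher and 0 lower, beside 8 and 1. Over all probe sets of chip B, leaving out 1 array gave at most 949 higher and 858 lower, beside 1300 and 1105 with all arrays. A further 26 member probe sets had an unadjusted limma p under 0.05 and no call. With the called ones included, 25 of 95 member probe sets on chip A had such a p, beside 4981 of all 22626. On chip B 19 of 62 had one, beside 6318 of all 22511.

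Genes that act with these ligands and receptors were followed as a list of 85 symbols of coreceptors, adaptors, cytoskeletal regulators and proteases. Some genes were listed under an older name as well, and 76 genes were measured. On chip A 6 of 66 rose and 2 fell, beside 3.46% and 3.45% of all genes, and none of the 10 on chip B alone passed. The median log2 change of the 76 was 0.158. Adam10, a protease that cuts ephrin-A and its Eph receptor apart, rose 2.32-fold, its mean going from 865 ± 404 to 2072 ± 235 (SD, n = 3; limma adjusted p = 0.035). Dpysl5, a collapsin response mediator protein, rose 2.25-fold (adjusted p = 0.0235), Trio, a signalling protein of the netrin pathway, 2.13-fold (0.0135), and the actin regulator Evl 1.93-fold (0.0254). Timp2, an inhibitor of metalloproteinases, fell 3.90-fold, from 6687, 4477 and 5022 to 1089, 871 and 2073 (adjusted p = 0.00563), and Enah, which is related to Evl, fell 1.87-fold (0.0435). Cfl1, the actin-severing cofilin, was the brightest that did not pass (log2 change -0.27, adjusted p = 0.6). The Timp2 call held without any 1 array. Each of the others named was lost without some: Trio without ES replicate 1 or EB replicate 1 or 2 (up to 0.0726), and Adam10, Dpysl5, Evl and Enah without any 1 array but ES replicate 3 (up to 0.152).

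Markers of other cell types were followed on chip A, where 3.46% of all genes rose and 3.45% fell. In each of these lists most markers did not pass. The median log2 change was -0.804 for feeder fibroblast, -0.662 for endothelial and -0.34 for macrophage markers. It was -0.02 for neural, 0.077 for primitive streak and mesoderm and 0.083 for endoderm markers. The 14 feeder fibroblast markers held 0 rises and 5 falls, and their summed signal was 18712 to 32468 in ES arrays and 5488 to 7483 in embryoid bodies. Col1a1 fell from 4923 ± 1554 to 48.6 ± 20.2 and S100a4 from 4481 ± 1184 to 158 ± 68.0 (SD, n = 3). None of the 14 was below the pseudocount in both groups. The part of feeder cells in the falls of Epha2, Sema4a, Sema4b, Sema4d, Plxna1 and Timp2 was not tested. Of 13 neural markers 3 rose, the largest being Zic1 (9.31-fold) and Sox11 (5.00-fold), and Stmn2 fell, with sums of 15711 to 21630.3 in ES arrays and 17043 to 25389 in embryoid bodies. Neurog2 was below the pseudocount in both groups. Of 10 primitive streak and mesoderm markers 3 rose, led by Frzb (17.6-fold) and Aplnr (7.17-fold), with sums of 5039.9 to 5559.7 and 10009 to 18905. Among 9 endoderm markers Foxa2 rose 2.33-fold, with sums of 10595 to 15954 and 11252 to 15219 and Ttr below the pseudocount in both groups. The part of these cell types in the rises of Flrt3, Epha7, Slit1, Slit2, Robo3 and the others was not tested. Of 9 endothelial markers 0 rose and 2 fell, Pecam1 and Cd34, with sums of 4179 to 6046 and 2620.0 to 3647 and Tie1 below the pseudocount in both groups. None of 7 macrophage markers passed (sums of 3915 to 4714 and 2734 to 3665). Among the markers named, Zic1 lost its call without ES replicate 1 or 2 and without EB replicate 2 or 3 (up to 0.0759), Foxa2 without ES replicate 1 and without EB replicate 1 or 3 (up to 0.0781), and Pecam1 without ES replicate 1 or 2 and without EB replicate 1 or 3 (up to 0.119). Stmn2 lost it without any 1 array but ES replicate 3 (up to 0.163), and Cd34 without any 1 array but EB replicate 2 (up to 0.172).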

How the data were processed

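RNA of 3 J1 ES cell samples and 3 embryoid body samples was hybridized to both Affymetrix chips, giving 12 arrays. The deposited tables hold 1 linear intensity per probe set and array, made by the authors with MAS5, per the submitters' processing notes; its version is not given in the sources used here. Trimmed means of 1475.5 to 1484.2, as read from the values, show arrays scaled to a common target, and they were not scaled again. The tables used here hold no detection calls.

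On each chip 64 control probe sets were dropped. The array annotation gave 1 gene for 20380 probe sets of chip A, several for 691 and none for 1555, and on chip B for 14661, 245 and 7605. The reference table updated 0 symbols. Only probe sets with 1 gene were named.

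Each chip was fitted with limma 3.58.1 in R 4.3.3 (lmFit, eBayes with an intensity trend) on log2(intensity + pseudocount), the pseudocount being the 20th percentile of the chip, with Benjamini-Hochberg adjustment over all its probe sets and a threshold of 0.05. The procedure was tested on simulated data. For counts by gene, the probe set with the highest mean stood for a gene, after IDs ending in _x_at were set aside. Members and lists were chosen with earlier results of these data known. The genes named were those with a call, per family and chip the brightest uncalled gene and the largest uncalled change, and for the partner and marker lists those with the largest called changes and the brightest uncalled partner, with 4 pluripotency genes as a check; other members stand in ranges. Alternatives were other scalings, pseudocounts and thresholds, a dim filter, no trend, the mean of a gene's probe sets, blocks by replicate, fluidics position and scan day, and leaving out each array.

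No arrays of a group were duplicates (0 equal values), with correlations across probe sets of 0.936 to 0.966 on chip A and 0.838 to 0.882 on chip B.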

Additional observations from a re-analysis of the deposited data

How the results depend on the processing

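Over all 157 member probe sets, the other settings gave 1226 values, of which 1150 kept sign and side of the threshold, 19 lost the call, 20 gained one and 37 uncalled changes turned sign. The gains were in 6 probe sets, of Efnb1, Efnb2 (2), Plxnb1, Flrt2 and Sema4d. With 1 array left out there were 942 values, of which 797 kept both, 48 lost the call, 8 gained one and 89 uncalled changes turned sign. Counts moved more than 1.5 times as follows. On chip A the 5 member probe sets higher in embryoid bodies became 8 with the scan day as a random block (consensus correlation -0.113, each day holding 1 state) and 2 at an adjusted p of at most 0.01, and the 4 lower ones became 2 after quantile scaling, 2 with the replicate block and 1 at 0.01. The 4 member genes higher on chip A became 2 with a gene taken as the mean of its probe sets. The 2 partner genes lower became 1 after median scaling, quantile scaling or with the chip median as pseudocount. Over all probe sets of chip A, the 767 higher became 425 with no intensity trend, 1221 with the scan day as a random block, 158 at 0.01 and 444 with a fold of at least 2, and the 658 lower became 419, 1022 and 185 under the first 3 of these. On chip B the 8 higher members became 3 at 0.01, and the 1 lower member became 2 after a filter on dim probe sets and 0 with no trend, after quantile scaling, at 0.01 or with a fold of at least 2; the 1 lower member gene became 0 after quantile scaling. Over all probe sets of chip B the 1300 higher became 319 and the 1105 lower 245 at 0.01. The cause was not tested, except that stricter thresholds call fewer by construction.

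With 1 array left out, which by construction leaves fewer samples, chip A had 2 to 7 member probe sets higher, 1 to 5 lower, 1 to 4 member genes higher, 1 to 4 lower, 0 to 7 partner genes higher, 1 to 3 lower, 206 to 1161 probe sets higher in all and 230 to 930 lower. Chip B had 4 to 9 member probe sets higher, 0 to 1 lower, 3 to 7 member genes higher, 0 to 1 lower, 502 to 949 probe sets higher in all and 430 to 858 lower. Slit3 turned from 0.32 to -0.19 with the fluidics position as a block and to -0.18 without ES replicate 3.

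Same-numbered samples did not deviate together (correlations of -0.066 to 0.043 on chip A and -0.03 to -0.017 on chip B), so the numbers are not taken as pairs. With the replicate block 6 member probe sets were higher and 2 lower on chip A; Sema3f (adjusted p = 0.0782), Sema4a (0.0758), Sema4d (0.0531), Slit2 on chip B (0.0558) and Plxna1 (0.0573) were no longer past the threshold, and both Efnb2 probe sets (0.0157 and 0.0488), Plxnb1 (0.026) and Flrt2 (0.0486) were. On chip B the scan day coincides with the group and the fluidics position with the replicate number, so neither was run as a separate block. No other scaling moved the median of all probe sets by more than 0.056.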
